A study of Mus musculus with 24 samples.

Results

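Total RNA of whole mouse testis was compared between Atad2 knockout (KO) and wild-type (WT) pups at day 22 after birth, with 4 libraries per genotype, 8 of the 24 libraries of a series that also covers days 20, 24 and 26. The members are all libraries labelled with day 22 and all genes of their count tables: 24456 genes are listed, 20653 had a count in at least 1 of the 8 libraries, and 17170 passed the filter on low counts. KO pups were homozygous for a knockout-first allele in which a lacZ cassette traps the upstream exons and the exon behind it was removed with a ubiquitously expressed CMV-Cre, which leaves a fusion protein without the AAA+ ATPase domain and the bromodomain. Every cell of the animal carries the allele. The WT group holds pups of the same age, and the labels give no treatment for either group. The labels name testis as the source, while their protocol text also mentions purified fractions of spermatogenic cells. The labels number the libraries of a group without naming animals, and the study's methods call them biological replicates. P-values of the main fit measure the spread between libraries within the 8 groups of genotype and day, over all 24 libraries.

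ATAD2 is a chromatin protein with an AAA+ ATPase domain and a bromodomain that binds acetylated histones, and it is known for acting on the residence of histone chaperones on chromatin. The first wave of spermatogenesis in the young testis is roughly synchronous: spermatogonia enter meiosis, pachytene spermatocytes accumulate, round spermatids appear after the meiotic divisions, and elongating spermatids follow. In spermatids the histones are replaced by transition proteins and then by protamines, the small basic proteins that pack sperm DNA. The age of the pup and the pace of the wave therefore both set which transcripts a whole testis contains, and in RNA of a whole organ fewer cells of a type and less RNA per cell cannot be told apart.

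The 8 libraries held 11755730 to 19491935 counts in genes, with 18601 to 19080 genes detected per library. Markers of spermatogonia and spermatocytes and also of the somatic Sertoli, Leydig and peritubular cells were all present in these libraries. The KO libraries differed more among themselves than the WT libraries did. The median gene had an SD of 0.249 log2 CPM (counts brought to one library size) over the KO group and of 0.161 over the WT group. At the other days this SD ran from 0.0893 (KO, day 26) to 0.359 (WT, day 20), and the main fit shares 1 spread per gene over all groups. In no pair of day 22 libraries of 1 genotype did the counts agree within sampling noise. KO library 4 had 4.74% multiply aligned reads against 7.99% to 9.16% in the other 7. Genes of the epididymis, the duct beside the testis, stood high in KO library 1 and WT libraries 3 and 4: Crisp1 and the other 7 listed genes summed to 4.88 to 147 CPM in the KO libraries and to 3.45 to 602 CPM in the WT libraries, and 2 of the 8 had no count at day 22.

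Atad2 itself (chr15:58094044-58135082, minus strand, protein-coding; GENCODE M21 on GRCm38) was at 33.8, 45.3, 41.1 and 35.3 CPM in KO libraries 1 to 4 and at 93.2, 91.8, 78.2 and 76.1 CPM in the WT libraries. No KO library reached a WT library. The fall was -1.12 on the log2 scale (SE 0.181, adjusted p = 0.00233, edgeR quasi-likelihood test). Counts were made per gene, so the KO values include the exons upstream of the cassette and do not measure intact transcript. Among the other 40 tested genes that start within 5 Mb of Atad2, 2 were called, the collagen gene Col14a1 and the pseudogene H2afy3, both lower in KO, beside 2.51% of all tested genes called in either direction and 1.25% called lower.

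Across all tested genes 431 differed between KO and WT at an adjusted p under 0.05 (2.51%), 217 higher in KO (1.26%) and 214 lower (1.25%). Groups of 4 libraries that did not overlap were found for 1389 genes (8.09%), of which 625 were higher in KO (3.64%) and 764 lower (4.45%). The 2 directions differed in how the libraries carried them. Leaving out any single day 22 library kept 52 of the 214 lower calls and 6 of the 217 higher calls in all 8 fits. KO library 2 was the highest KO library for 192 of the 217 higher genes, and KO library 1 or 4 was the lowest for 119 and 88 of them. For the lower genes, KO library 4 was the lowest KO library in 129 of 214 and WT library 4 the highest WT library in 127. A fit of the day 22 libraries alone, with 15739 genes tested, called 9 genes higher (0.0572%) and 60 lower (0.381%). Without KO library 2, 19 genes were called higher and 79 lower. Without WT library 2 the counts were 33 and 107, without WT library 3 they were 12 and 62, and without WT library 4 they were 6 and 54. Leaving out KO library 1 raised them to 495 and 363, without KO library 3 they were 127 and 216, and without KO library 4 they were 342 and 138.

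**Figure D1:**
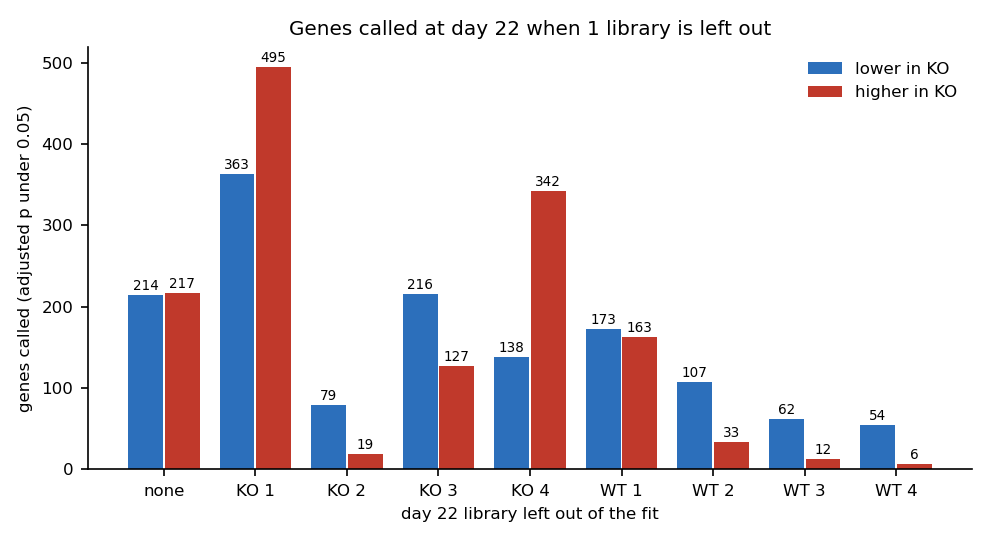
Bars give the number of genes called at an adjusted p under 0.05 in the comparison of KO with WT at day 22, lower in KO in blue and higher in KO in red, for the fit of all libraries (none) and for fits that leave out 1 day 22 library. The red bars fall from 217 to 19 without KO library 2 and to 6 without WT library 4, and the blue bars never fall under 54.

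The genes with the firmest fall in KO testis were a small and mixed set in which the 4 KO values lay several-fold under the 4 WT values. Asb4, a substrate receptor of cullin ubiquitin ligases encoded in an imprinted region (chr6:5383386-5433022, plus strand), was at 4.05, 7.09, 3.10 and 3.55 CPM in the KO libraries and at 52.1, 40.4, 56.5 and 61.1 CPM in the WT libraries. The highest KO library lay far under the lowest WT library. Its log2 fold change was -3.56 (SE 0.306, adjusted p = 1.5e-06, edgeR). A330076C08Rik, a long intergenic noncoding RNA (chr13:44185760-44216487, minus strand), was at 1.27, 1.38, 0.725 and 1.27 CPM against 9.44, 10.7, 9.20 and 11.1 CPM. This gene had the smallest p-value of the comparison, with a log2 fold change of -3.11 (SE 0.252, adjusted p = 7.5e-07, edgeR). A further long intergenic RNA, 4933406K04Rik (chr12:106685607-106716362, minus strand), was at 0.363, 1.38, 0.527 and 0.469 CPM against 6.69, 4.10, 5.77 and 6.6 CPM, a log2 fold change of -3.06 (adjusted p = 1.3e-05). KO library 2 was the highest of the KO group for both Asb4 and 4933406K04Rik, and the groups stayed apart without overlap.

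The antisense RNA 4930522O17Rik (chr4:53246196-53251115, plus strand) was at 3.33, 5.77, 4.09 and 2.15 CPM in KO and at 19.3, 21.2, 19.4 and 23.5 CPM in WT (log2 fold change -2.44, SE 0.280, adjusted p = 4.9e-05). H2afy3, annotated as a processed pseudogene of a macroH2A gene (chr15:62218221-62219332, minus strand), was at 2.72, 6.25, 3.23 and 4.56 CPM against 16.8, 14.5, 17.3 and 17.8 CPM (log2 fold change -1.98, adjusted p = 4.9e-05). As a processed copy it can share reads with its parent genes, so its level is uncertain. Loxhd1, which encodes a protein of the hair cells of the inner ear built of PLAT domains (chr18:77281958-77442930, plus strand), was at 3.03, 2.95, 1.84 and 2.21 CPM against 9.09, 10.1, 9.26 and 9.46 CPM. The 4 WT values lay within a narrow range, and Loxhd1 fell by 1.91 on the log2 scale (SE 0.209, adjusted p = 3.5e-05, edgeR). Cilp, an extracellular protein of cartilage (chr9:65265180-65280605, plus strand), was at 1.57, 0.601, 0.791 and 0.670 CPM against 5.99, 7.78, 6.17 and 7.37 CPM, a log2 fold change of -2.89 (adjusted p = 3.5e-05). All of these lower genes kept their call in each of the 8 fits that leave out a day 22 library.

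**Figure D2:**
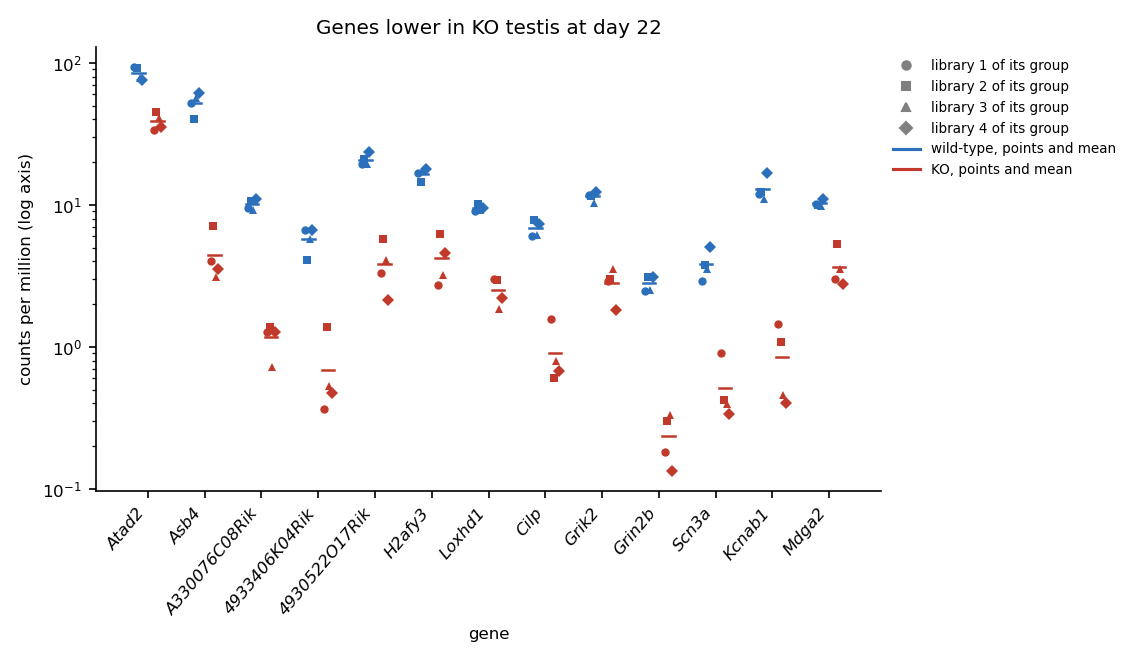
Points give CPM on a log axis for each of the 4 KO libraries (red) and 4 WT libraries (blue) of day 22, with the replicate number shown by the marker and the group mean by a bar, for Atad2 and 12 genes lower in KO. The KO points lie under the WT points in every gene shown, with Asb4 at 3.10 to 7.09 CPM in KO and 40.4 to 61.1 CPM in WT.

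Several genes of excitable membranes were among the falls called, and each of their lists held few calls. Of 23 tested glutamate receptor genes, 2 fell and 0 rose (1.25% of all genes fell), and the median log2 fold change of the list was 0.03 beside 0.01 over all tested genes. Grik2, a kainate receptor subunit (chr10:49094833-49788766, minus strand), was at 2.91, 3.01, 3.56 and 1.81 CPM in KO and at 11.8, 11.5, 10.4 and 12.4 CPM in WT. Its log2 fold change was -2.02 (SE 0.246, adjusted p = 9.0e-05, edgeR). Grin2b, an NMDA receptor subunit (chr6:135713233-136173511, minus strand), was at 0.182, 0.301, 0.330 and 0.134 CPM against 2.47, 3.09, 2.50 and 3.12 CPM, with a log2 fold change of -3.52 (SE 0.581, adjusted p = 0.00325). Both genes stayed called without any single day 22 library.

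Of 76 tested genes with potassium channel names 3 fell and 0 rose, beside 1.25% and 1.26% of all tested genes, and the list's median was -0.16. At an unadjusted p under 0.05 by edgeR, 14 were lower and 5 higher (6.89% and 7.7% of all tested genes). The 4 KO and 4 WT values did not overlap for 10 lower and 3 higher genes (4.45% and 3.64%). The list scores, defined with the spermatid lists below, were -0.24 to -0.08 in KO and -0.03 to 0.27 in WT. Kcnab1, a beta subunit of voltage-gated potassium channels (chr3:65109384-65378223, plus strand), was at 1.45, 1.08, 0.461 and 0.402 CPM against 11.8, 12.3, 10.9 and 16.8 CPM. This was the largest fitted fall among the genes named here, -3.90 on the log2 scale (SE 0.689, adjusted p = 0.00761, edgeR). Kcnmb3, a beta subunit of the large-conductance calcium-activated channel, was at 0.121 to 0.481 CPM against 0.502 to 0.921 CPM (log2 fold change -1.70, adjusted p = 0.0383), and Kcne4, a single-pass regulatory subunit, at 1.21 to 3.63 against 4.13 to 5.42 CPM (-0.86, adjusted p = 0.0453). These last 2 genes kept their call in 1 of the 8 fits that leave out a library. Scn3a, a pore subunit of voltage-gated sodium channels (chr2:65457118-65567627, minus strand), was the only one of 16 tested sodium and calcium channel pores to pass, at 0.908, 0.421, 0.396 and 0.335 CPM against 2.89, 3.76, 3.55 and 5.06 CPM (-2.86, SE 0.333, adjusted p = 5.4e-05). Of these 16 pores 12 had a negative and 4 a positive fold change, with 4 lower and 0 higher at an unadjusted p under 0.05. Their list scores were -0.28 to -0.24 in KO and -0.07 to 0.07 in WT. Mdga2, a membrane-anchored regulator of synaptic adhesion, was the only called gene of 39 tested synaptic adhesion and scaffold genes, at 2.75 to 5.29 CPM in KO and 9.79 to 11 CPM in WT (-1.48, SE 0.185, adjusted p = 0.000116). Of 13 tested GABA and glycine receptor genes Gabra3 passed, with 1.88, 0.0601, 0.198 and 0.134 CPM against 2.75, 3.6, 2.21 and 6.55 CPM (-2.70, adjusted p = 0.0394), a call kept in 1 of the 8 fits that leave out a library. KO library 1 and WT library 4, in which epididymal genes were high, were the highest of their groups for Gabra3, and the part of the epididymis in this value was not tested.

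Of 37 tested imprinted genes 2 fell, Asb4 and H19, and 1 rose, Dlx5, beside 1.25% and 1.26% of all tested genes. The median of the list was -0.24, with 26 negative and 11 positive fold changes, and 7 genes had no overlap in the lower direction (4.45% of all genes). H19, a maternally expressed noncoding RNA, was at 6.48, 4.09, 6.53 and 5.56 CPM in KO and at 9.93, 11, 10.7 and 22.6 CPM in WT. WT library 4 stood far above the other 3. H19 fell by 1.27 on the log2 scale (SE 0.256, adjusted p = 0.0146, edgeR), and the call was lost without WT library 4 or without KO library 2. Dlx5, a homeobox transcription factor gene, was at 0.303, 1.62, 0.725 and 0.335 CPM in KO and had at most 3 counts in each WT library (adjusted p = 0.0180, edgeR). Its KO mean was at least 3.78-fold above a floor of 3 counts per library, the level that a count of 0 allows. Such folds, here and below, bound the WT side only and leave out the spread of the KO libraries. The Dlx5 call was lost without KO library 2 or WT library 2, 3 or 4.

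Collagens are the main fibre-forming proteins of connective tissue. Of 43 collagen genes tested, 10 fell and 1 rose by edgeR (1.25% and 1.26% of all tested genes) and 15 fell and 1 rose by DESeq2, 33 of the fold changes were negative, and the median was -0.69 against 0.01 over all tested genes. Summed collagen levels were 1375 to 3304 CPM in the KO libraries and 3771 to 6241 CPM in the WT libraries. Col5a1, a chain of fibrillar type V collagen, was at 53.3, 39.6, 56.2 and 29.4 CPM in KO and at 72.3, 78.5, 91.9 and 114 CPM in WT (-1.0, SE 0.225, adjusted p = 0.0227). Col6a2, a chain of the microfibrillar type VI collagen, was at 83.2, 36.2, 62.4 and 30.2 CPM against 116, 117, 134 and 192 CPM (-1.40, SE 0.326, adjusted p = 0.0292). In both genes KO library 4 was the lowest and WT library 4 the highest of all 8. Col14a1, a fibril-associated collagen, was at 22.0, 10.7, 10.0 and 9.86 CPM against 26.6, 30.2, 43.3 and 70.2 CPM (-1.70, adjusted p = 0.0177), with KO library 1 far above the other KO libraries. Col3a1, the abundant type III collagen of connective tissue, was at 853, 339, 492 and 207 CPM against 958, 1120, 1205 and 1925 CPM and did not pass the test (-1.46, adjusted p = 0.0521). KO library 1 was the highest KO library for Col6a2, Col14a1 and Col3a1 and WT library 4 the highest WT library. These libraries and WT library 3 were also those with high epididymis scores, which were 3.15, -2.11, -1.86 and -2.15 in KO and -2.20, -2.10, 0.77 and 4.21 in WT, and the part of the epididymis in the collagen values was not tested. The 1 collagen gene that rose was Col27a1 (10.1 to 15.7 against 4.55 to 9.93 CPM, 1.04, adjusted p = 0.0465), named after its values were seen. Without KO library 2 the collagen list had 2 falls, without KO library 4 it had 4, without WT library 3 or 4 it had 1, and in a fit of the day 22 libraries alone it had 0. The membrane-bound Col25a1 stayed called in all 8 fits that leave out a library, at 3.57, 3.31, 2.77 and 2.41 CPM against 5.85, 6.10, 5.13 and 6.70 CPM (-0.98, SE 0.170, adjusted p = 0.00473). Col6a4, a further type VI chain, was at 16.6 to 25.2 CPM in KO and 31.6 to 44.6 CPM in WT (-0.75, adjusted p = 0.0132).

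Of 13 laminin and nidogen genes, which encode basement membrane proteins, Lamc1 and Lama4 fell (adjusted p = 0.0355 and 0.0420) and 11 had a negative fold change. Over all tested genes 1.25% fell, and the same share applies to the single calls among the endothelial and macrophage markers. The calls of Lamc1 and Lama4 were lost without KO library 2 or 4 or WT library 2, 3 or 4. Levels of endothelial and peritubular markers are given beside these matrix genes. The 9 endothelial markers summed to 33.9 to 66.2 CPM in the KO libraries and to 75.1 to 82.3 CPM in the WT libraries, without overlap. Of the 9 fold changes 8 were negative, and Kdr, a receptor of vascular endothelial growth factor, was called (-0.95, SE 0.248, adjusted p = 0.0444), a call lost in 7 of the 8 fits that leave out a library. The 8 peritubular markers summed to 450 to 823 CPM and to 789 to 1106 CPM. Of the 8 fold changes 7 were negative, 0 passed by edgeR against 6 at an unadjusted p under 0.05 (all lower, as were 6.89% of all tested genes) and 3 by DESeq2, with Mylk, the myosin light chain kinase of smooth muscle, at 136 to 185 against 187 to 238 CPM (-0.46, adjusted p = 0.0811). No marker of either list was at 0 in all 8 libraries. KO library 4 was the lowest library for endothelial, peritubular, Leydig and macrophage scores. Its score for mitochondrially encoded proteins was -0.82, against -0.05 to 0.20 in the other KO libraries and -0.11 to 0.25 in WT. Of the 8 libraries it also had the least mitochondrial ribosomal RNA (0.170%) and the largest share of reads at no feature (54.8%). The parts of cell composition and of library quality in the matrix genes were not tested. Of 10 macrophage markers Fcgr3, a low-affinity receptor for immunoglobulin G, fell from 63.2, 52.6, 55.7 and 61.2 CPM in WT to 28.4, 28.6, 27.4 and 26.1 CPM in KO (-1.07, SE 0.185, adjusted p = 0.00450, edgeR) and kept its call in all 8 fits, whereas the summed level of the macrophage list overlapped between groups (187 to 448 against 357 to 382 CPM) and its median was -0.05.

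Genes of the elongating spermatid were prominent among those higher in KO. Of 20 elongating spermatid markers 9 rose and 0 fell (1.26% of all genes rose), and of 13 tested protamine, transition protein and testis histone genes 6 rose and 0 fell, with Prm1, Prm2, Tnp1, Tnp2 and H1fnt on both lists. DESeq2 also called 5 of the 9 and 2 of the 6 higher, and it gave no adjusted p for the other 4 on either list, Prm1, Prm2, Tnp1 and Tnp2. The promoters of 5 of the 6 genes of histone replacement that rose are shown because these genes moved together, library by library. That of H2afb1, a gene with like copies, is not shown. They are RefSeq sequences of GRCm38.p6 from 250 bases before to 50 bases after the start of transcription, printed 5′ to 3′ on the strand of the gene: Prm1 at chr16:10796774-10797073, Prm2 at chr16:10792056-10792355, Tnp1 at chr1:73015850-73016149, Tnp2 at chr16:10788606-10788905 and H1fnt (H1f7 in RefSeq) at chr15:98257258-98257557, all on the minus strand. Capitals mark matches, on either strand, to TGANNTCA, the palindrome of the cyclic AMP response element TGACGTCA with its middle pair free, and to the TATA box TATAAA.
Prm1: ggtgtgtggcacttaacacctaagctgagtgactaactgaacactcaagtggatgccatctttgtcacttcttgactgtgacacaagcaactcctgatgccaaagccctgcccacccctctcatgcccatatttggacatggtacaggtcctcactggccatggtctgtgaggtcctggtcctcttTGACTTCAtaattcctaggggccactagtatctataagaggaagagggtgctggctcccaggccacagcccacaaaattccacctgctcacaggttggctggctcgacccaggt
Prm2: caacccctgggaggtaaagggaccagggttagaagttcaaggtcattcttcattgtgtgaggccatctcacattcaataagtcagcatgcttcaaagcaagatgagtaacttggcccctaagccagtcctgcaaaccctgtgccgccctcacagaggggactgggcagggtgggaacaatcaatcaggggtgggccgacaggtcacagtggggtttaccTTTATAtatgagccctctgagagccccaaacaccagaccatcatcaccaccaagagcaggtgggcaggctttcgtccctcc
Tnp1: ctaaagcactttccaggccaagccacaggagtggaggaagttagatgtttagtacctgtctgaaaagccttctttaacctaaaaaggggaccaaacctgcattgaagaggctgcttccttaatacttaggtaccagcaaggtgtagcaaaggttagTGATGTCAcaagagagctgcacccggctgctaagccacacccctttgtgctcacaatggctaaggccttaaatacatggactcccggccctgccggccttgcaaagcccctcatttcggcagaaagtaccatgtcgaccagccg
Tnp2: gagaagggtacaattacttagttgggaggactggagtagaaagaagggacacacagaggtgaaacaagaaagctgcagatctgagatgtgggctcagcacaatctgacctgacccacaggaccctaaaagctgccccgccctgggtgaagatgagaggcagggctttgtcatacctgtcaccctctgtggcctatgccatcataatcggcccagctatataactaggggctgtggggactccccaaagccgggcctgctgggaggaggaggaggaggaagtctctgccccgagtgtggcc
H1fnt: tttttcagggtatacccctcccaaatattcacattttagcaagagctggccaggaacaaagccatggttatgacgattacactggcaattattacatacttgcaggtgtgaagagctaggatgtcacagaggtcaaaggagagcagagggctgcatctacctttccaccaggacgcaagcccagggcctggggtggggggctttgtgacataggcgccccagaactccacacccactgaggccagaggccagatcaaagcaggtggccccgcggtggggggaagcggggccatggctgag

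A match to TGANNTCA begins 64 bases before the start in Prm1 and 94 bases before it in Tnp1, and the capitals of Prm2 mark a TATA box on the opposite strand. Neither motif is in the windows of Tnp2 and H1fnt. The free middle pair was chosen after the Prm1 and Tnp1 sequences had been read, so the shares are descriptions. TGANNTCA, which contains TGACGTCA, was in 69 of 208 promoters (33.2%) of the 172 higher genes with an entry, in 22 of 187 promoters (11.8%) of the 147 lower genes with an entry, in 11.5% of the promoters of all tested genes and in 14.1% of all 32851 promoters of the table. Among genes that rose with age in WT testis and were not called at day 22 it was in 16.3% of 4035 promoters. The full site TGACGTCA was in 1.92%, 1.60%, 2.75% and 1.79% of the promoters of higher genes, lower genes, all tested genes and the whole table, and TATAAA in 16.3%, 11.2%, 8.30% and 13.6%.

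Prm1, which encodes protamine 1, was at 1.69, 65.3, 21.6 and 1.34 CPM in the KO libraries and at 1.13, 0.167, 0.350 and 0.307 CPM in the WT libraries. KO libraries 2 and 3 carried the rise, while KO libraries 1 and 4 lay just above the highest WT library. On the log2 scale Prm1 rose by 5.53 (SE 1.28, adjusted p = 0.0302, edgeR). Prm2, the second protamine, was at 0.545, 45.3, 15.8 and 0.805 CPM against 0.634, 0.167, 0.466 and 0.563 CPM (5.02, SE 1.19, adjusted p = 0.0333). Tnp1 and Tnp2, the transition proteins, were at 1.09, 40.3, 15.9 and 0.872 CPM against 1.13, 0.335, 0.757 and 0.358 CPM and at 1.33, 48.1, 18.5 and 1.34 CPM against 1.34, 0.418, 0.757 and 0.614 CPM (adjusted p = 0.0365 and 0.0368). In Prm2, Tnp1 and Tnp2 the groups overlapped, since KO library 1 lay within the range of the WT libraries in each. H1fnt, the linker histone of elongating spermatids, was at 2.24, 28.9, 10.9 and 4.16 CPM against 1.48, 0.585, 0.699 and 0.716 CPM (3.73, SE 0.771, adjusted p = 0.0214), and H2afb1, a histone H2A variant gene of the X chromosome with like copies nearby and so of uncertain level, at 0.605, 8.24, 3.96 and 0.603 CPM against 0.282, 0.0836, 0.117 and 0.102 CPM (4.47, adjusted p = 0.0199). Tnp2 was named after its values were seen, as the partner of Tnp1.

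**Figure D3:**
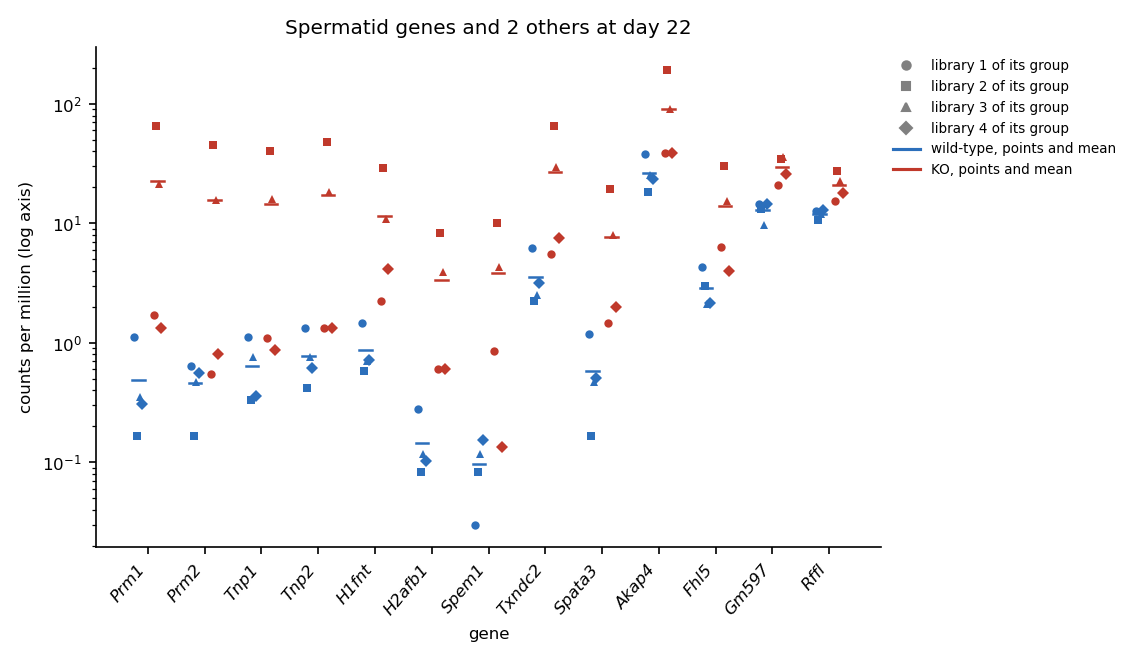
Points give CPM on a log axis for each KO library (red) and WT library (blue) of day 22, with the replicate number shown by the marker and the group mean by a bar; a value of 0 is drawn at 0.03. For Prm1, Prm2, Tnp1 and Tnp2 the square and the triangle, KO libraries 2 and 3, stand at 15.8 to 65.3 CPM and KO libraries 1 and 4 at 0.545 to 1.69 CPM, whereas all 4 KO points of Gm597 and Rffl lie above the WT points.

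Other called genes of late spermatids were also highest in KO library 2 and next in KO library 3. Spem1, which is needed to shed the cytoplasm of the spermatid, was at 0.847, 10.2, 4.28 and 0.134 CPM with at most 3 counts in each WT library (adjusted p = 0.0199, edgeR). Its KO mean was at least 19.5-fold above a floor of 3 counts per library, although KO library 4 lay inside the WT range. Txndc2, a thioredoxin of the sperm tail, was at 5.57, 65.2, 29.7 and 7.51 CPM against 6.20, 2.26, 2.50 and 3.17 CPM (2.94, SE 0.671, adjusted p = 0.0285), with KO library 1 inside the WT range. Spata3 was at 1.45, 19.4, 7.98 and 2.01 CPM against 1.2, 0.167, 0.466 and 0.511 CPM (3.70, adjusted p = 0.0286). Fhl5, a LIM-domain coactivator of the transcription factor CREM in spermatids, was the only called gene of 20 tested germ cell transcription regulators, at 6.29, 30.4, 15.4 and 4.02 CPM against 4.30, 3.01, 2.10 and 2.15 CPM (2.30, SE 0.530, adjusted p = 0.0293). Of 13 spermatid kinase genes Tssk6 and Camk4 rose (adjusted p = 0.0417 and 0.0302). Of all tested genes 1.26% rose, the share beside which the counts of kinases and regulators are read. The most abundant marker of the list, Akap4, the scaffold of the fibrous sheath of the tail, was at 38.5, 193, 89.9 and 39.2 CPM against 38, 18.4, 25.6 and 23.4 CPM and did not pass (1.78, SE 0.609, adjusted p = 0.141). A further rise was that of Prss37, a serine protease-like protein of the sperm surface, at 0.424, 16.9, 5.08 and 0.670 CPM. Its KO mean was at least 29.3-fold above the floor. Fbxo39, an F-box gene, and 1700027A15Rik also rose, with KO means at least 12-fold and 9.32-fold above the floor. 1700027A15Rik is an antisense RNA that spans Tnp1 on the other strand and was counted separately because the counting used strand. For 47 of the 217 higher genes every WT library had 3 counts or fewer.

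These rises rested on few libraries. Without KO library 2 none of the 20 elongating spermatid markers was called, nor without WT library 2, 3 or 4, and 9 were called without KO library 4. A fit of the day 22 libraries alone called 0. The score of this list, the mean over its members of the log2 CPM minus the member's mean over the 24 libraries, was -0.70, 2.46, 1.32 and -0.56 in the KO libraries and -0.70, -1.81, -1.31 and -1.44 in the WT libraries. KO library 1 and WT library 1 had equal scores at this precision. Round spermatid markers leaned the same way without a call: of 21 tested, 20 had a positive fold change with a median of 1.2, 0 passed by edgeR against 15 at an unadjusted p under 0.05 (all higher, as were 7.7% of all tested genes) and 1 by DESeq2, and the scores were 0.09, 1.55, 0.76 and 0.36 in KO and 0.19, -0.38, -0.11 and -0.23 in WT. The difference between the round spermatid and pachytene scores, here called the stage score, was 0.12, 1.3, 0.78 and 0.32 in KO and 0.01, -0.35, -0.11 and -0.28 in WT, every KO library above every WT library. With the stage score as a covariate, 6 genes were called higher in KO (0.0349% of tested genes) and 82 lower (0.478%), of which 6 and 79 were among the calls without it. The score is made of tested genes of the same libraries and parts the genotypes at day 22. A call lost in this fit therefore does not tell the score from genotype.

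A few higher genes kept their call when any single day 22 library was left out. Ly6g6c, a member of the Ly6 family of the major histocompatibility region, had the smallest p-value of the higher genes (adjusted p = 0.00333, edgeR). It was at 0.303, 3.07, 1.19 and 0.737 CPM with at most 3 counts in each WT library, a KO mean at least 6.70-fold above the floor. Gm597, a predicted protein-coding gene (chr1:28776117-28780252, minus strand), was at 21, 34.8, 35.8 and 26.1 CPM against 14.5, 13.2, 9.79 and 14.5 CPM (1.18, SE 0.203, adjusted p = 0.00464). Gm11545, an unprocessed pseudogene, was at 2.18, 2.71, 4.48 and 3.29 CPM against 0.634, 0.335, 0.874 and 0.511 CPM (2.38, SE 0.415, adjusted p = 0.00473), uncertain in level since it can share reads with its parent. Together with 4931428F04Rik (6.57 to 15 against 3.52 to 4.4 CPM), Rffl, a ubiquitin ligase with a RING finger (15.4 to 27.6 against 10.6 to 13 CPM), and Got1l1, a relative of aspartate aminotransferase (6.84 to 12.4 against 4.43 to 5.63 CPM), these are the 6 higher genes that kept their call in all 8 fits. With the day 22 libraries alone 2 of the 6 stayed called: 4931428F04Rik, Rffl and Got1l1 did not pass (adjusted p = 0.0852, 0.0857 and 0.0769, edgeR), and Ly6g6c did not pass the filter on low counts. With the stage score as a covariate Ly6g6c, Rffl and Got1l1 did not pass (adjusted p = 0.142, 0.0606 and 0.0746). Among the 8 fits that leave out a day 22 library, Slc25a41 and Tagap1 lost their call only without WT library 4. Slc25a41, a mitochondrial carrier for adenine nucleotides, had a KO mean at least 6.30-fold above the floor. It did not pass the filter on low counts with the day 22 libraries alone.

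Tagap1, a GTPase activating protein gene, was at 48.3, 43.4, 43.8 and 62.3 CPM in KO and at 32.5, 29.4, 30.1 and 28.1 CPM in WT (0.72, SE 0.135, adjusted p = 0.00850). Its near-identical copy Tagap, named after its values were seen, went the other way, at 2.18, 0.721, 1.25 and 0.536 CPM against 10.4, 8.11, 8.15 and 10.8 CPM (-2.99, SE 0.522, adjusted p = 0.00576). Both copies lie on chromosome 17, at chr17:6955011-6961156 and chr17:7926000-7934897. Reads that fit both copies were not counted, so how reads divide between them is uncertain.

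Genes of earlier germ cells and of the chromatin machinery around ATAD2 gave no calls in the main fit. At an adjusted p under 0.05 by edgeR, 0 of 16 tested spermatogonial, 0 of 21 early meiotic, 0 of 15 pachytene, 0 of 22 meiotic division, 0 of 22 piRNA pathway and 0 of 15 Sertoli cell genes passed. Of all tested genes 2.51% passed in either direction, so that no call in lists of this size is near the background. The medians of these lists lay between -0.13 and 0.14. Of the meiotic division genes 15 of 22 had a negative fold change, and their scores did not overlap, at -0.05 to 0.07 in KO and 0.09 to 0.21 in WT. Of the piRNA pathway genes 19 of 22 had a positive one, with overlapping scores. Of 23 histone chaperone and H3.3 genes, the list nearest to the known activity of ATAD2, 0 passed with a median of 0.04, and the summed level was 3090 to 3276 CPM in KO and 3080 to 3123 CPM in WT. The KO and WT values did not overlap for 2 of the 23, both higher in KO (3.64% of all tested genes). These were H3f3b, the most abundant of the list (mean 654 against 548 CPM, adjusted p = 0.256, edgeR), and Supt16 (224 against 210 CPM, adjusted p = 0.83, edgeR). Of 22 bromodomain and acetyltransferase genes 0 passed with a median of 0.03. Among acrosome and flagellum genes 21 of 24 and 24 of 26 had a positive fold change, with medians of 0.40 and 0.39, and 0 of either passed. Of 10 markers of the steroid-making Leydig cells 7 had a positive and 3 a negative fold change, with a median of 0.34. The 1 call (1.26% of all tested genes rose) was Hsd17b3, the enzyme that makes testosterone from androstenedione, at 5.69, 8.78, 13.1 and 4.09 CPM against 4.86, 3.6, 2.21 and 2.97 CPM (1.22, SE 0.317, adjusted p = 0.0423), with KO library 4 inside the WT range. Its call was lost without KO library 2 or 3 or WT library 2, 3 or 4. Hsd3b1, an enzyme of an earlier step of steroid synthesis, was at 157, 135, 165 and 81.6 CPM in KO and 190, 212, 220 and 219 CPM in WT without overlap, and did not pass (-0.64, adjusted p = 0.0890).

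For the lists without a call, the counts at an unadjusted p under 0.05 were 1 for spermatogonia, 2 each for early meiosis, the piRNA pathway, Sertoli cells and histone chaperones, 0 for pachytene, meiotic division and bromodomain genes, 9 for the acrosome and 11 for the flagellum, beside 14.6% of all tested genes in either direction. DESeq2 called 1 gene each of the Sertoli, acrosome and flagellum lists and 0 of the others. Cholesterol synthesis genes (20 tested), mitochondrially encoded proteins (10), immediate early and heat shock genes (12), red blood cell genes (3) and epididymal genes (4) also had 0 calls by edgeR and 0 by DESeq2, with 2, 0, 1, 1 and 0 at an unadjusted p under 0.05. By name, 6 of 54 Spata and Tex genes rose and 0 fell (1.26% and 1.25% of all tested genes), among them Tex35, which is expressed in testis, at 2.90, 23.0, 9.69 and 2.08 CPM against 1.2, 0.836, 0.175 and 0.716 CPM (3.72, adjusted p = 0.0160). Of 32 Adam genes 2 rose, the neighbours and like copies Adam6a and Adam6b, whose levels are therefore uncertain. Of 25 Prss genes Prss37 and Prss55 rose and Prss23 fell (-1.15, adjusted p = 0.0389). Without KO library 2, or with the day 22 libraries alone, 0 genes of these 3 lists were called.

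**Figure D4:**
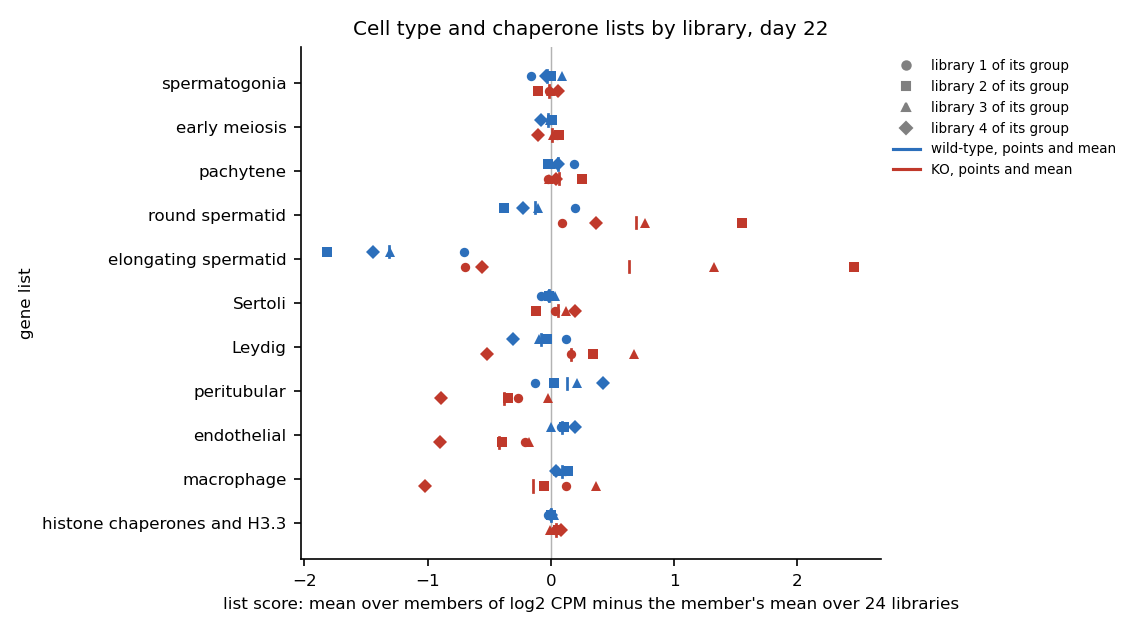
Each point is the score of a gene list in 1 library of day 22, the mean over its members of log2 CPM minus the member's mean over the 24 libraries, with KO libraries in red, WT libraries in blue, the replicate number as the marker and the group mean as a bar. Elongating spermatid scores run from -0.70 to 2.46 in KO and from -1.81 to -0.70 in WT, endothelial scores lie lower in every KO library, and the scores of spermatogonia, early meiosis, Sertoli cells and histone chaperones lie near 0 in all 8 libraries.

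The change with age in WT testis gives a scale for these differences, and it was taken from the 4 WT libraries of day 20 and the 2 of day 26. Those libraries share the fit, its estimate of spread and its filter on low counts with day 22, so the overlap is not independent of the day 22 calls: without KO day 26 replicate 1 the calls at day 22 were 322, and Prss37, Fbxo39, Ly6g6c and Slc25a41 did not pass the filter with the day 22 libraries alone. Between day 20 and day 26, 4183 genes rose (24.4%) and 3109 fell (18.1%). Of the 217 genes higher in KO at day 22, 198 rose with age (91.2%) and 6 fell. Among the 214 genes lower in KO, 50 fell with age (23.4%), 31 rose and 133 were not called. For the 52 lower genes that kept their call in all 8 fits, 15 rose with age, 8 fell and 29 were not called. Genes lower in KO that rose with age included Asb4 (1.31 on the log2 scale between day 20 and day 26), 4933406K04Rik (1.21), 4930522O17Rik (1.3) and H2afy3 (0.77), with adjusted p of 0.00252, 0.00239, 0.00180 and 0.0215. Mdga2 rose with age by 1.12 (adjusted p = 0.000213).

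**Figure D5:**
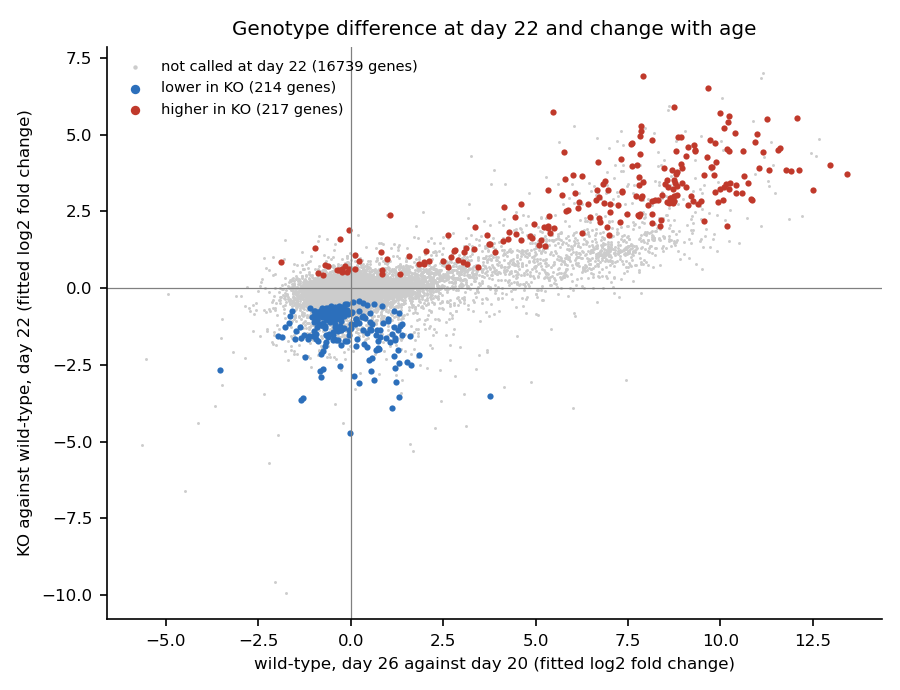
Each point is a tested gene, with the log2 fold change of WT day 26 against WT day 20 on the x axis and that of KO against WT at day 22 on the y axis; the 217 genes higher in KO are red, the 214 lower in KO blue and the others grey. Fitted folds of genes with almost no counts at day 20 depend on the prior count; 198 of the 217 red points are genes called higher with age, and most blue points sit near the middle of the x axis, 133 of 214 being not called with age.

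Of the 6 genes that were higher in KO and fell with age, 4 are given here. Ccdc115, an assembly factor of the vacuolar proton pump, was at 29.7, 32.0, 32.2 and 36.5 CPM in KO and at 24.4, 24.9, 21.6 and 21.2 CPM in WT (0.50, SE 0.103, adjusted p = 0.0150), and fell with age by 0.87. Trim12a, a tripartite motif gene of a cluster with like copies and so of uncertain level, was at 6.70 to 8.41 CPM against 3.32 to 5.19 CPM (0.84, adjusted p = 0.0180). Rbpj, the DNA-binding effector of Notch signalling, was at 54.9, 45.8, 46.1 and 57.3 CPM against 34.2, 37.6, 39.6 and 38.4 CPM (0.45, SE 0.106, adjusted p = 0.0294). Ankdd1b was at 2.01 to 3.23 CPM against 0.511 to 1.69 CPM (1.3, adjusted p = 0.0278). None of the 4 overlapped between groups, and each lost its call without WT library 3 and without WT library 4.

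Genes lower in KO were longer on the genome than those higher in KO. The median gene span was 31475 bases for the lower genes, 9542 for the higher genes and 22613 for all tested genes, and 87.4%, 80.6% and 92.0% were protein-coding. Names of RIKEN clones, many of them uncharacterised testis transcripts, made up 59 of the higher and 22 of the lower genes, out of 1330 tested, of which 671 rose with age in WT. These counts became 2 and 19 without KO library 2, 1 and 13 without WT library 4, and 1 and 12 with the day 22 libraries alone. Chromosome 6 held 22 lower (2.59%) and 15 higher genes (1.76%) of 851 tested. Chromosome 1 held 20 higher (2.02%) and 21 lower genes (2.12%) of 990. The X chromosome held 11 higher (1.51%) and 4 lower (0.549%) of 728. Over all tested genes the shares were 1.26% higher and 1.25% lower.

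The same genes were read at the other days, each against its own WT libraries, with 4 libraries per genotype labelled day 20 and 2 each labelled days 24 and 26. For day 20 the methods text names a smaller number of replicates than is labelled, and every library with that label entered the fit. Leaving out single day 20 libraries gave 349 to 537 calls at day 22, 0 to 77 between days 22 and 20, and 7204 to 7971 with age. Of the 214 genes lower at day 22, 194 had a negative fold change at day 20, 210 at day 24 and 194 at day 26, beside 48.9%, 51.6% and 54.3% of all tested genes. Of the 217 higher genes, 195, 198 and 151 had a positive one, beside 50.9%, 48.4% and 45.7%. At those days 34, 12 and 8 of the lower genes and 9, 1 and 0 of the higher genes passed in the same direction, where 3.34%, 0.0874% and 0.0466% of all tested genes passed in either. The median log2 fold change of the lower genes was -1.13 at day 22 and -0.33, -0.62 and -0.69 at days 20, 24 and 26, and that of the higher genes was 2.88 at day 22 and 2.03, 0.69 and 0.14. The genes were chosen at day 22, which favours large medians there. A330076C08Rik was lower at all 4 days, by -2.57, -3.11, -3.09 and -2.43 at days 20, 22, 24 and 26 (adjusted p = 1.7e-05, 7.5e-07, 0.000459 and 0.00375, edgeR), as was Mdga2, by -1.06, -1.48, -1.62 and -1.70. Asb4 was lower by -2.31, -3.56, -2.79 and -2.60, and 4933406K04Rik by -3.11, -3.06, -2.36 and -2.26, both called at each day. Cilp was called at day 22 only, with -0.47 at day 20 (adjusted p = 0.557) and -0.46 at day 26 (adjusted p = 0.703), but its effect was not called different between days. The test of the difference itself called 1 gene between days 22 and 20 (0.00582% of tested genes) and 0 between day 22 and day 24 or 26 by edgeR, against 85, 0 and 2 by DESeq2 for days 20, 24 and 26. At an unadjusted p under 0.05 the effect differed from that at days 20, 24 and 26 for 8.39%, 3.05% and 8.17% of all tested genes. It did so for 43, 123 and 197 of the 217 higher genes and for 123, 11 and 40 of the 214 lower genes. Their choice at day 22 favours such differences. The called gene, Gm6408, was at 2.77 to 3.55 CPM in KO and 2.46 to 3.68 CPM in WT at day 22 (0.07, SE 0.232), and higher in KO at day 20 by 2.64, a difference of -2.57 (adjusted p = 0.0450). This call was lost with other size factors, with no filter on low counts and without most single libraries. The KO effect on Atad2 itself was -1.67, -1.12, -1.43 and -1.25 at days 20, 22, 24 and 26, and it did not pass at day 26 (adjusted p = 0.0628).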

How the data were processed

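Per the labels and the study's methods, the authors made stranded ribosomal RNA-depleted libraries from total RNA of testis, aligned paired reads to mm10 with STAR 2.7.11b and deposited raw counts of reads per gene from HTSeq, counted by strand over exons and leaving out reads that fit several places. The version of the gene models is not given in the sources used here. The rows that name no gene (no feature, ambiguous, not uniquely aligned) were left out of library sizes. They held 47.3% to 54.8% (no feature), 0.163% to 0.197% (ambiguous) and 4.74% to 9.16% (not unique) of the 8 libraries' totals.

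The counts of all 24 libraries were fitted in 1 model with 8 groups, genotype by day, by edgeR 4.0.16 (R 4.3.3) with TMM scaling, a filter on low counts (filterByExpr, minimum count 10) and the quasi-likelihood test, two-sided, with Benjamini-Hochberg adjustment over 17170 genes and a threshold of 0.05. SE is the log2 fold change divided by the root of F. CPM values are TMM-scaled, and scores used log2 CPM with a prior count of 2. In the 8 day 22 libraries, with 11755730 or more counts each, 3 counts are 0.154 to 0.255 CPM before TMM scaling. This floor covers counting error only. The fit was tested on simulated data.

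Genes named are Atad2, the 8 with the smallest p and the 4 with the largest change in each direction among non-overlapping called genes with a mean of 1 CPM or more in the higher group, up to 5 called and 2 abundant uncalled members of each list, up to 4 in each class of opposite age change, and up to 4 per test between days. Not all genes that the rule allows are described. Tagap, Tnp2 and Col27a1 were named after their values were seen. The gene lists and the comparison were chosen with earlier results of these data known. Positions are from GENCODE M21 (GRCm38), matched by symbol, synonym or RefSeq, with 150 genes not placed. Alternatives were DESeq2 1.42.0, its size factors in edgeR, no filter, no robust option, day 22 libraries alone, a block of replicate numbers, a stage score as a covariate and each library left out in turn. A fit by limma 3.58.1 with library weights was chosen after seeing the data.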

Additional observations from a re-analysis of the deposited data

Results flagged for a closer look

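Among 206 groups of 4 libraries examined for a library far from the other 3 by Dixon's 95% critical value, 11 had one, and chance gives about 1 in 20. KO library 1 was the far one for Col14a1 (22.0 CPM against 9.86 to 10.7 in the other KO libraries), Gabra3 (1.88 against 0.0601 to 0.198 CPM), Scn3a (0.908 against 0.335 to 0.421 CPM) and the epididymis score (3.15 against -2.15 to -1.86). The part of epididymal RNA in these 3 genes was not tested. KO library 2 stood high for 4933406K04Rik (1.38 against 0.363 to 0.527 CPM), KO library 3 stood low for A330076C08Rik (0.725 against 1.27 to 1.38 CPM) and high for Mylk (185 against 136 to 142 CPM). WT library 1 stood high for the spermatid histone genes H1fnt (1.48 against 0.585 to 0.716 CPM) and H2afb1 (0.282 against 0.0836 to 0.117 CPM), and WT library 4 for H19 (22.6 against 9.93 to 11 CPM). KO library 4 had 4.74% not uniquely aligned reads against 7.99% to 8.50% in the other KO libraries. The KO effect on Gm6408 differed between ages by the test of the difference: the effect at day 22 minus that at day 20 was -2.57 on the log2 scale, with the gene higher in KO by 2.64 at day 20.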

How the results depend on the processing

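The 431 calls (217 higher, 214 lower) became 69 (9 and 60) with the day 22 libraries alone, of 15739 genes tested, 88 (6 and 82) in a fit that carries the stage score, 749 (421 and 328) by DESeq2 and 1366 (845 and 521) by limma with library weights. The size factors of DESeq2, the missing filter and the fit without the robust option left 416, 319 and 429 of the 431 called. Leaving out single libraries gave 60 to 858 calls, 6 to 495 higher and 54 to 363 lower. The cause was not tested. The 1 gene that differed between days 22 and 20 became 0 with the size factors of DESeq2, without the filter and without the robust option, 13 with the stage score, 85 by DESeq2, 134 by limma with weights and 0 to 77 with a library left out. The count of 0 between days 22 and 24 reached 1 with a library left out. That between days 22 and 26 became 2 by DESeq2, 950 by limma with weights and at most 7 with a library left out. The 7292 genes that changed with age became 0 with the stage score and 4724 to 7971 with a library left out, the fewest without replicate 2 of WT day 26. Gm6408 at day 22 turned from 0.07 to -0.23 with the stage score and lay between -0.025 (without replicate 4 of WT day 22) and 0.177 with a library left out.

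Same-numbered KO and WT libraries did not deviate together at day 22 (correlations of -0.459 to -0.0254). Correlations were 0.0705 to 0.4105 at day 20, and 0.39 and 0.416 at days 24 and 26. With 2 libraries per group the deviations mirror each other, so days 24 and 26 give 1 value each, with a sign set by the numbering. Not every library correlated best with its own number, so the numbers were not taken as pairs. A replicate block gave 235 calls, 53 higher and 182 lower, and 0 between days 22 and 20. With it 27 of the 62 called genes named here were no longer called, among them Prm1 (adjusted p = 0.0816) and Prss37 (adjusted p = 0.0617). Of the 62 named genes that were called, 57 stayed called by DESeq2, which gave no adjusted p for the other 5, and 28 without KO library 2 and 22 without WT library 4. The KO minus WT differences of the spermatogonia, pachytene, macrophage, epididymis, mitochondrial and serine protease scores changed sign in at least 1 alternative, and those of the spermatid, endothelial and peritubular scores in none of those run. The spread of the KO libraries and 11755730 counts in the shallowest day 22 library limit what could be called among genes near the floor. Over all 24 libraries the shallowest, WT day 20 replicate 2, held 10709667 counts.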
